A study of Mus musculus with 4 samples.

Results

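The flow-responsive endothelial genes described here are 10 genes, Klf2, Klf4, Klf6, Nos3, Edn1, Thbd, Heg1, Piezo1, Pi16 and Cyp1b1, taken by symbol from the 27998 gene identifiers that all 4 libraries share. Each was followed in 3 classes of cell in single-cell RNA sequencing of the developing mouse mitral valve. A cell was called endothelial where at least 2 of the 6 markers Cdh5, Pecam1, Emcn, Egfl7, Ecscr and Esam were detected (4 in the deeper E9.5 library). An endothelial cell was called capillary type where at least 2 of the 3 markers Fabp4, Cd36 and Gpihbp1 were also detected, and surface type otherwise. All remaining cells of the library were called other cells. None of these 9 markers is one of the 10 genes.

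The study sorted the Tie2-Cre lineage, that is, endothelial cells and their descendants, to follow the progenitors of the mitral valve. Embryos were of the C57BL/6 strain and came from females carrying Tie2-Cre and a Rosa26 tdTomato reporter, so every group shares these alleles and no group lacks them. The atrioventricular canal was taken at E9.5 (1 library), the mitral valve before birth at E16.5 (1 library) and again in newborns at P0 (2 libraries), with no treatment and at least 60 embryos per stage. Animals were therefore pooled, and Tie2-Cre also labels blood cells and the mesenchyme that leaves the endothelium. For the E16.5 library the labelled age is mistyped, and its stage was taken from the title. No label ties the P0 libraries to separate litters, so a p-value here measures spread among these samples alone, and that spread may be technical.

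Endothelial cells sense the drag of flowing blood through channels such as PIEZO1 and through junction complexes, and pass the signal by the MEKK3, ERK5 and MEF2 cascade to the transcription factors KLF2 and KLF4. The cerebral cavernous malformation proteins, held at the membrane by HEG1, restrain that cascade. KLF2 and KLF4 in turn raise NOS3, which makes nitric oxide, and thrombomodulin (Thbd), and lower endothelin-1 (Edn1). In the atrioventricular canal the endocardium meets oscillating flow, and Klf2 and Piezo1 are known to be needed for normal valve formation.

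Printed here are the promoters of the gene that receives the flow signal and of 1 gene of the complex that restrains it. They show letters that this pathway is known to use. Both genes were higher in surface type than in capillary type cells, which is why these promoters were chosen. They are RefSeq sequence of build GRCm38.p6, 5′ to 3′ on the gene's own strand, and end at the base before the transcript start. Capitals mark a MEF2 motif in Klf2, and CACCC, the core of KLF binding sites, or its reverse complement GGGTG in Heg1.
Klf2, chr8:72318812-72319032, plus strand: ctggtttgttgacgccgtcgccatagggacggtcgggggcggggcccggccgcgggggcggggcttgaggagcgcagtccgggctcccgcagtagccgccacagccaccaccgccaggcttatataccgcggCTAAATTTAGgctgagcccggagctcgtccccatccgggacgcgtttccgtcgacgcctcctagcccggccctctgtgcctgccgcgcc
Heg1, chr16:33684216-33684369, plus strand: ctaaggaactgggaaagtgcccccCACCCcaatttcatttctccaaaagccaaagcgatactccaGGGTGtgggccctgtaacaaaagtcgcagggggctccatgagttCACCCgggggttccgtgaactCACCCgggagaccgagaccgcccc
The Klf2 window holds 1 match to the MEF2 motif, from −89 to −80 of the start, and 2.61% of 32851 promoter windows of the same 221 bases hold one. The Heg1 window holds 4 CACCC matches, counted on both strands, and 36% of windows of 154 bases hold at least 1. Of 7 members whose window could be searched, 1 held the MEF2 motif and 4 held CACCC (Edn1, Heg1, Piezo1 and Cyp1b1), a motif that 52% of windows of 250 bases hold, the length searched for Edn1, Piezo1 and Cyp1b1. The compared windows of 154 and 221 bases were the most upstream bases of each promoter. They stop short of that promoter's own RefSeq start, so their shares leave out the bases nearest to it. A match is a string of letters and not a measured site.

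All 10 genes are protein coding. In GRCm38 coordinates with GENCODE annotation, Klf2 lies at chr8:72319033-72321656, Klf4 at chr4:55527143-55532466, Klf6 at chr13:5861482-5870394, Nos3 at chr5:24364810-24384474 and Edn1 at chr13:42301476-42307990. Thbd lies at chr2:148404466-148408188, Heg1 at chr16:33684370-33771576, Piezo1 at chr8:122481698-122551329, Pi16 at chr17:29317680-29330593 and Cyp1b1 at chr17:79701537-79715061.

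Filters left 1194 cells in the E9.5 library, 311 in the E16.5 library and 282 and 176 in the P0 pair, with 157, 75, 78 and 48 surface type cells and 0, 56, 84 and 40 capillary type cells. In the same order, the median depth was 24621, 2357, 5159.5 and 4433 UMIs (unique molecules counted) per cell. The class names were set against further markers: a list of 10 valve-surface genes summed to 23.3 to 31.7 per 10000 UMIs in mitral surface type cells and 5.87 to 8.0 in capillary type cells. Surface type cells also held interstitial markers at 21.8 to 27.9 per 10000 UMIs in the mitral valve, against 4.50 to 6.12 in capillary type cells. Postn is in both lists, so the valve-surface sum does not by itself settle the class name. Interstitial markers reached 40 per 10000 UMIs in 9 of 75, 15 of 78 and 7 of 48 surface type cells. They did so in 1 of 56, 1 of 84 and 2 of 40 capillary type cells. The E16.5 library stood apart: Malat1, a nuclear RNA, was at 3.55 to 7.81 per 10000 UMIs against 230 to 491 at P0, and ribosomal protein genes were at 2976 to 3187 against 2012 to 2292. It also held 30.4 cardiomyocyte marker UMIs per 10000 in surface type cells, against 0.603 and 2.33 at P0. The lists of the P0 libraries share 4 barcodes. Fewer cells with a transcript and less RNA per cell cannot be told apart in summed counts, so the shares of cells are given where they bear on a level.

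In the mitral valve most of these genes were highest in surface type cells, lower in capillary type cells and lowest in other cells. Of the 9 genes that passed the filter on low counts, 7 were higher in surface type than in other cells (Klf2, Nos3, Edn1, Thbd, Heg1, Piezo1 and Pi16), 1 was lower (Klf6) and Klf4 did not pass the test, where 24.6% of the 4532 genes tested were called. Against capillary type cells, 6 were higher on the surface (Klf2, Nos3, Edn1, Heg1, Piezo1 and Pi16) and none was lower, where 14.7% of all genes were called, 8.01% higher and 6.64% lower. Capillary type cells held 6 of the 9 above other cells (Klf2, Nos3, Edn1, Thbd, Heg1 and Piezo1), where 28.9% of genes were called. The members' median log2 difference was 2.42, 0.94 and 1.07 in these comparisons, and the median over all genes was −0.01, 0.02 and 0.00. Cyp1b1 did not pass the filter in any comparison. A gene passed where any sum reached the cut. Nos3, Thbd and Piezo1 reached it only in endothelial sums, and Edn1 and Pi16 only in surface sums. They would not have been tested had they been low there, so the counts of members called depend in part on the filter.

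**Figure D1:**
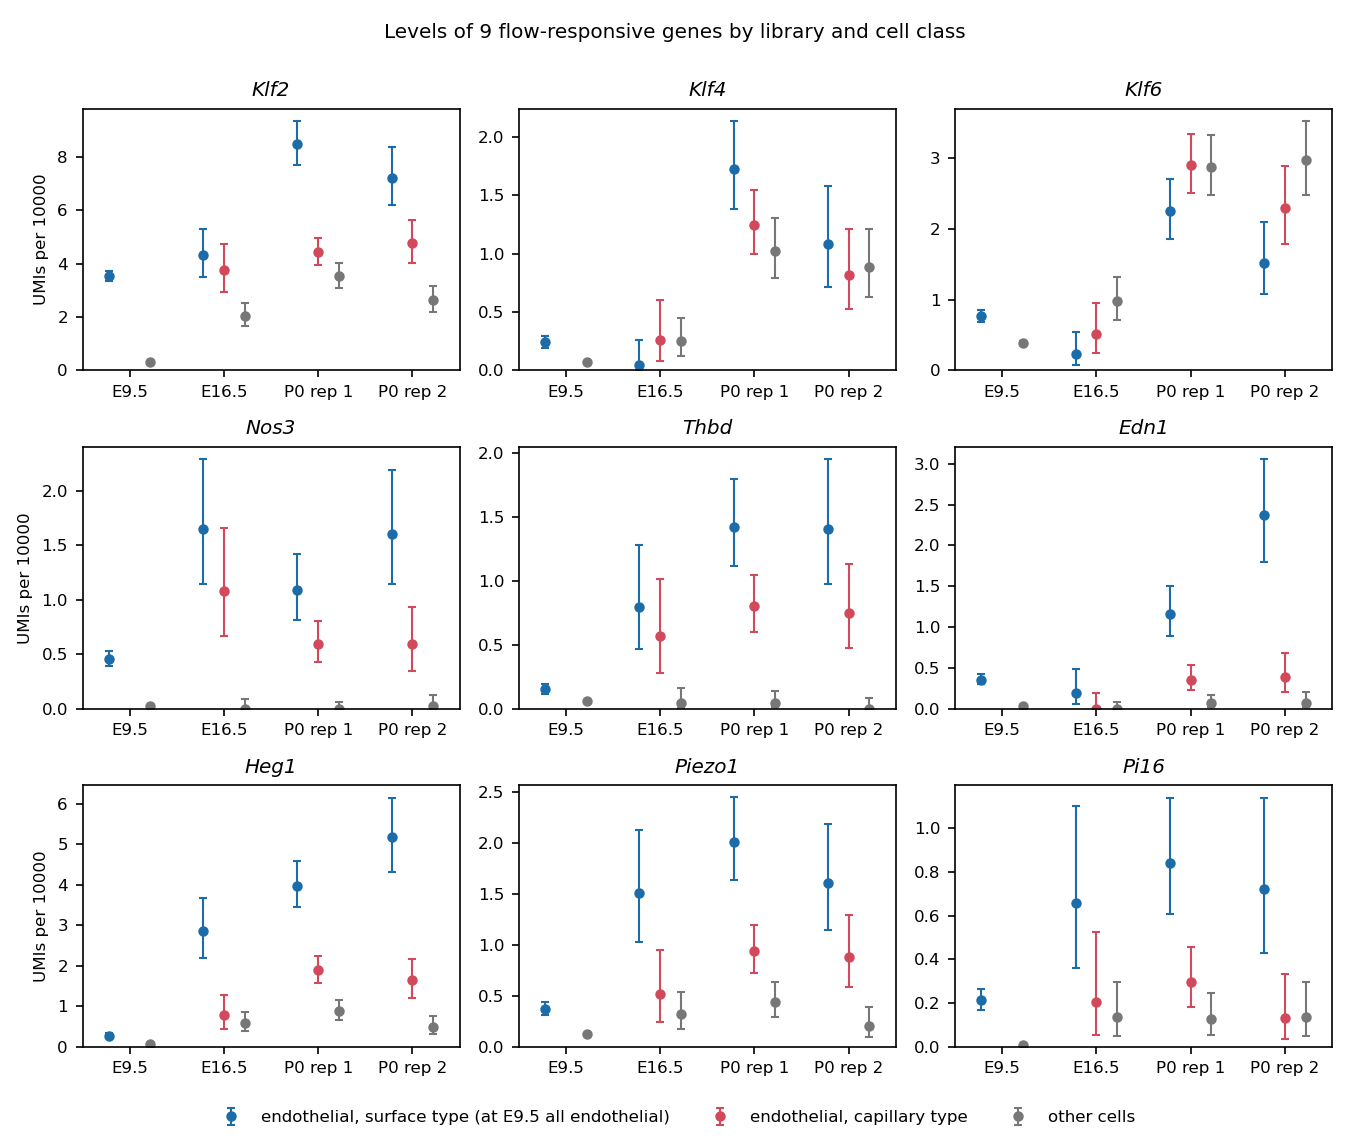
Levels of the 9 genes that passed the filter in UMIs per 10000 (vertical), by library (horizontal) and class (colour), with 1 point per library and 95% exact Poisson intervals that cover counting error only. Heg1 and Piezo1 fall from surface to capillary to other cells in each mitral valve library, and Klf6 runs the other way at E16.5.

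Piezo1, the mechanically gated channel, measured 1.5 UMIs per 10000 in surface type cells at E16.5 and 2.01 and 1.60 at P0, from 32, 100 and 40 UMIs. Capillary type cells held 0.515, 0.935 and 0.884 and other cells 0.320, 0.440 and 0.204 in the same libraries. The lowest surface value lay above every capillary and other value. The difference was 1.10 ± 0.26 (log2, SE, 3 libraries) between surface and capillary type cells and 2.33 ± 0.27 between surface and other cells (edgeR quasi-likelihood test, Benjamini-Hochberg adjusted p = 0.00380 and 6.20e-07).

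Heg1, the transmembrane anchor of the cerebral cavernous malformation complex, was well above both other classes on the surface. Its surface levels were 2.87 at E16.5 and 3.98 and 5.18 UMIs per 10000 at P0, against 0.773, 1.89 and 1.64 in capillary type cells and 0.593, 0.881 and 0.499 in other cells. Over the 3 mitral valve libraries the surface mean was 4.01 ± 1.16 (SD, n = 3) and the capillary mean 1.43 ± 0.58, and the groups did not overlap. Heg1 was higher on the surface by 1.44 ± 0.22 on the log2 scale against capillary type cells (edgeR quasi-likelihood test, Benjamini-Hochberg adjusted p = 4.70e-05). Against other cells it was higher by 2.51 ± 0.24 (adjusted p = 2.03e-08, same test).

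Klf2, the first of the flow-responsive transcription factors, was higher in surface type cells than in both other classes of its library. Surface type cells held it at 4.32 UMIs per 10000 at E16.5 and 8.50 and 7.22 at P0, from 92, 423 and 180 UMIs. Capillary type cells held 3.76, 4.42 and 4.78, and other cells 2.05, 3.54 and 2.66. Within each library the surface level was above the capillary level, but across libraries the E16.5 surface value lay below both P0 capillary values, so the groups overlapped. The within-library difference was 0.61 ± 0.17 (log2) against capillary type cells and 1.22 ± 0.17 against other cells (edgeR quasi-likelihood test, Benjamini-Hochberg adjusted p = 0.0148 and 5.77e-06). DESeq2 did not call the first of these (adjusted p = 0.0920). Klf2 was not limited to endothelium: it was seen in 21.7%, 40.8% and 44.3% of other cells, against 41.3%, 78.2% and 72.9% of surface type cells, at median depths of 2087, 4490 and 4310 UMIs in other cells and 2836, 5884.5 and 4672 in endothelial cells. With each cell thinned to 1000 UMIs the expected shares were 24.9%, 43.7% and 41.6% in surface type and 13.2%, 17.6% and 21.2% in other cells, with 2 shallower surface type cells of E16.5 left out (73 of 75 used). In capillary type cells the shares with a Klf2 UMI were 57.1%, 77.4% and 72.5%, and 28.7%, 32.1% and 34.2% with thinning. At E16.5 the surface share was thus below the capillary share. The counting intervals of the 2 levels also overlapped there (3.48 to 5.30 and 2.95 to 4.73). Among other cells, those with interstitial markers held Klf2 at 2.07, 3.61 and 3.42 per 10000. The 3, 4 and 12 cells with leukocyte markers held it at 2.58, 8.95 and 1.55, so that in P0 replicate 1 these 4 cells stood at the surface level.

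Klf4, the close relative that shares targets with Klf2, did not separate the classes. Its levels were 0.047, 1.73 and 1.08 UMIs per 10000 in surface type cells, 0.258, 1.25 and 0.818 in capillary type cells and 0.251, 1.02 and 0.885 in other cells, at E16.5 and the 2 P0 libraries in turn. At E16.5 the surface value rests on 1 UMI. The classes differed by 0.30 ± 0.31 (log2, surface against capillary) and 0.32 ± 0.31 (surface against other), with adjusted p of 0.612 and 0.515 by the edgeR quasi-likelihood test (Benjamini-Hochberg).

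Klf6, an immediate-early member of the family, ran against the rest. Other cells held it at 0.982, 2.88 and 2.97 UMIs per 10000, above the surface type cells of the same library at 0.235, 2.25 and 1.52, with capillary type cells at 0.515, 2.91 and 2.29. It was lower in surface type than in other cells, with a log2 difference of −0.87 ± 0.24 (edgeR quasi-likelihood test, Benjamini-Hochberg adjusted p = 0.00789), and this call was lost without P0 replicate 2 (adjusted p = 0.0766) and with classes set after thinning cells to 1000 UMIs (−0.50, adjusted p = 0.15). A list of 26 genes that respond to tissue dissociation was also lower in surface type than in other cells. It summed to 34.7, 91.2 and 89.6 per 10000 in other cells and 16.9, 55.2 and 45.1 in surface type cells, and 15 of its 23 tested genes were lower in surface type cells and none higher. Of all genes tested, 12.1% were lower and 12.6% higher. In capillary type against other cells, too, 15 of the 23 were lower and none higher, against 15% and 13.8% of all genes. There Klf6 did not pass the test (−0.37 ± 0.23, edgeR quasi-likelihood test, Benjamini-Hochberg adjusted p = 0.258). The part of the dissociation list in the Klf6 difference was not tested. Klf6 was highest in the few cells with leukocyte markers, at 5.15, 7.42 and 5.54 per 10000 in 3, 4 and 12 cells.

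Nos3, the endothelial nitric oxide synthase, was close to absent from other cells. It gave 35, 54 and 40 UMIs in surface type cells (1.64, 1.09 and 1.60 per 10000), 21, 40 and 18 in capillary type cells (1.08, 0.594 and 0.589), and 0, 0 and 1 in other cells. In surface type cells it was at least 24.0-fold higher than in other cells at E16.5 and at least 23.0-fold higher in P0 replicate 1, against a floor of 3 UMIs per library, and the ratio was 70.7 (exact 95% interval 12.0 to 2862) in P0 replicate 2. No other cell of 180 at E16.5 had a Nos3 UMI, against 28.0% of surface type cells. A count of 0 allows up to 1.67% of other cells with a UMI (3 cells), and limits detection at this depth, not the share of cells that express the gene. Surface exceeded capillary type cells in each library, by 0.94 ± 0.29 (log2; edgeR quasi-likelihood test, Benjamini-Hochberg adjusted p = 0.0328), although the lowest surface value (1.09) was close to the highest capillary value (1.08). DESeq2 did not call this difference (adjusted p = 0.207).

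Edn1, which encodes the vasoconstrictor endothelin-1, measured 0.188, 1.17 and 2.37 UMIs per 10000 in surface type cells and 0, 0.356 and 0.393 in capillary type cells. Other cells held 0, 4 and 3 UMIs. At E16.5 only 4 surface UMIs were seen, at least 2.74-fold above other cells, and the E16.5 surface value lay below both P0 capillary values. Surface exceeded capillary type cells by 2.18 ± 0.35 on the log2 scale (edgeR quasi-likelihood test, Benjamini-Hochberg adjusted p = 8.61e-05). A single surface type cell of P0 replicate 2 held 32 of that library's 59 surface UMIs. Without it the level there was 1.12 per 10000, and the difference was 1.73 (adjusted p = 0.00242, same test).

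Thbd, the cell-surface receptor that turns thrombin towards anticoagulant protein C, measured 0.799, 1.43 and 1.40 UMIs per 10000 in surface type cells and 0.567, 0.802 and 0.753 in capillary type cells. Other cells held 2, 3 and 0 UMIs. Surface over other was 17.5 at E16.5 (exact 95% interval 4.15 to 156), 30.2 in P0 replicate 1 (9.94 to 150) and at least 20.6 in P0 replicate 2. The surface value was above the capillary value in each library, by 0.77 ± 0.30 (log2), which did not pass the test (edgeR quasi-likelihood test, Benjamini-Hochberg adjusted p = 0.0920). Without the E16.5 library the difference was 0.87 and passed it (adjusted p = 0.0470).

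Pi16, a secreted peptidase inhibitor known to be raised by shear stress in endothelium, stood at 0.658, 0.844 and 0.722 UMIs per 10000 on the surface, 0.206, 0.297 and 0.131 in capillary type cells and 0.137, 0.126 and 0.136 in other cells. The surface values did not overlap with either group. The log2 difference was 1.73 ± 0.40 against capillary type cells (edgeR quasi-likelihood test, Benjamini-Hochberg adjusted p = 0.00337). Capillary type cells did not pass the test against other cells (0.70 ± 0.48, adjusted p = 0.333). Cyp1b1, a cytochrome P450 enzyme, gave 10 UMIs in P0 replicate 1, each in a different surface type cell (12.8% of them), 1 in surface type cells of P0 replicate 2 and 0 in those of E16.5. Capillary type cells held 0, 2 and 0 UMIs of it and other cells 1, 0 and 1, at E16.5 and the P0 libraries in turn.

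**Figure D2:**
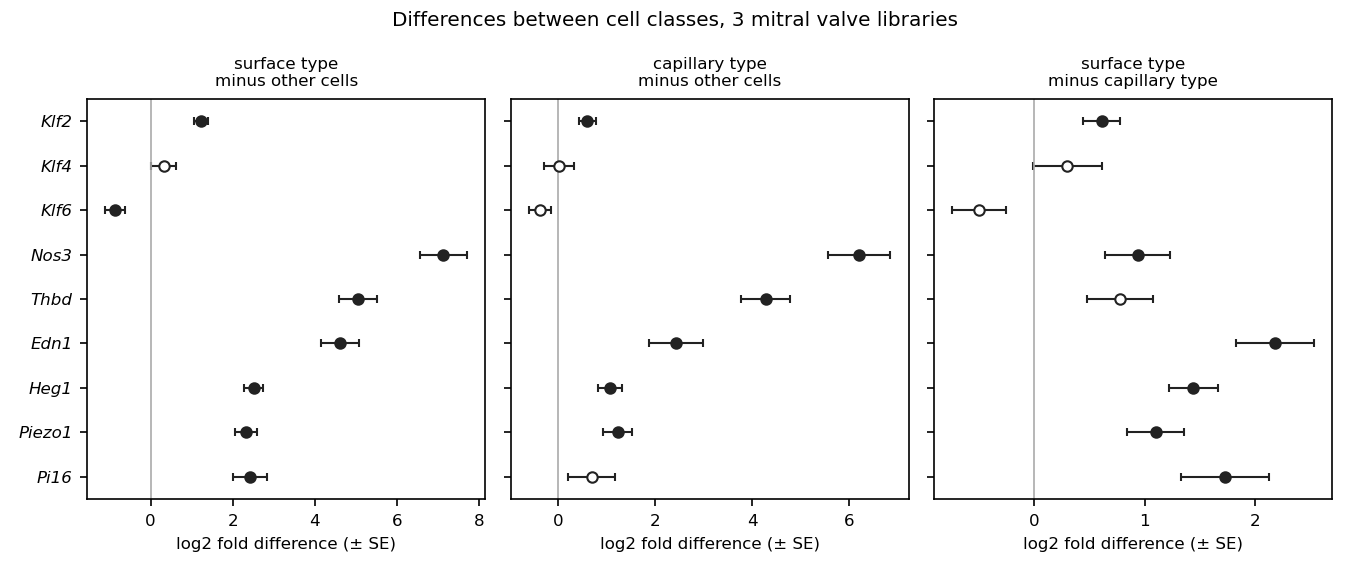
Log2 difference between classes within the mitral valve libraries for the 9 tested genes, with SE, from edgeR's quasi-likelihood fit over 3 libraries (filled circles passed the test, open circles did not). Nos3 lies at 7.14 and Thbd at 5.06 against other cells, values that rest on 1 and 5 UMIs in other cells, and Klf6 lies below 0 against other cells.

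Which libraries carried these calls was examined by leaving out each in turn. Without P0 replicate 1, surface against capillary type kept Edn1 and Heg1 as members called, and without P0 replicate 2 it kept Heg1 and Piezo1. Without the E16.5 library 7 members were called, Thbd in addition to the 6. Heg1 was called in each alternative but the fit without the library block (edgeR quasi-likelihood test, Benjamini-Hochberg adjusted p = 0.0567). Edn1 was not called against capillary type cells when surface type cells were limited to those with none of the capillary markers (1.51, adjusted p = 0.0835).

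Genes around the members were counted from lists of the pathway. The low-count filter bears on these lists as on the members. A list gene that reached the cut only in endothelial sums would not have been tested had it been low there. Counts of list genes higher or lower between classes therefore depend in part on the filter. Among the endothelin and nitric oxide partners, 8 of 20 were tested. On the surface 4 were higher and 1 lower than in capillary type cells, against 8.01% and 6.64% of all genes. The 4 were Ece1, which cuts endothelin to its active form, the endothelin receptor gene Ednrb, Ddah1, which removes an inhibitor of NOS, and Procr, which presents protein C to thrombomodulin. Ece1 measured 3.95, 5.83 and 5.30 UMIs per 10000 in surface type cells and 0.98, 1.74 and 0.79 in capillary type cells, without overlap, a log2 difference of 2.07 ± 0.22 (edgeR quasi-likelihood test, Benjamini-Hochberg adjusted p = 4.31e-07). Procr differed by 3.92 ± 0.51, Ednrb by 1.25 ± 0.28 and Ddah1 by 1.54 ± 0.41 on the log2 scale. The list's median was 0.74, and that of all genes 0.02.

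Of 15 tested genes of shear sensing and junctions, 9 were higher and 1 lower in surface type than in other cells (median 1.48). Of all genes, 12.6% were higher and 12.1% lower in that comparison. In capillary type against other cells 8 of the 15 were higher and 2 lower (median 1.54), against 13.8% and 15% of all genes. Between the endothelial types, where 8.01% of all genes were higher on the surface and 6.64% lower, 2 of the 15 were higher on the surface (the receptor Tek, 0.92, and the ATP-gated channel P2rx4, 2.12) and 4 lower than in capillary type cells. Those lower included the VEGF receptor Kdr (−1.91), the caveolar protein Cav1 (−1.75) and the semaphorin receptor Plxnd1 (−1.07). In the cascade from the malformation complex to MEF2, 9 of 14 genes were tested, and 3 were higher in surface type than in other cells and none lower. Against capillary type cells none was higher and Mef2c was lower, at 0, 0.98 and 0.84 UMIs per 10000 on the surface and 0.31, 4.05 and 5.07 in capillary type cells (log2 difference −2.28 ± 0.27; edgeR quasi-likelihood test, Benjamini-Hochberg adjusted p = 1.55e-06).

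Of 23 tested genes known to be raised by laminar flow, 15 were higher in surface type than in other cells and none was lower, with a list median of 1.74, where 12.6% of all genes were higher and 12.1% lower. Examples are the ephrin Efnb2 (5.35) and the sphingosine phosphate receptor S1pr1 (4.66). Against capillary type cells 6 were higher and 2 lower, with a median of 0.06, where 8.01% of all genes were higher and 6.64% lower. Those higher included Wnt9b (5.04), Ass1 (3.0), which makes arginine for NOS, Ptgs1 (1.67) and the connexin gene Gja4 (1.11). Wnt9b is also in the list of valve-surface genes that was set against the class names. Of 9 tested genes known to be raised by disturbed flow or inflammation, 3 were higher on the surface than in capillary type cells (Thbs1, 3.30; Ccl2, 2.50; Vcam1, 1.66) and 1 was lower (Pdgfb, −2.09). Thbs1 was lower on the surface than in other cells (−2.85). Of 5 other KLF genes tested, none differed from other cells and 1, Klf7, was lower than in capillary type cells (−1.12).

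Between stages, in surface type cells, 3 of the 9 tested members were lower at E16.5 than at P0 (Klf4, Klf6 and Edn1) and 1 was higher (Nos3), where 32.1% of 3890 genes were called. Klf2, Thbd, Heg1, Piezo1 and Pi16 did not pass the test. Klf4, Klf6 and Edn1 reached the cut of the low-count filter only at P0, and would not have been tested had they been low there. The same held for Klf4 in capillary type cells. In this comparison 1 library is set against 2, the lone library is assumed to vary like the P0 libraries, and a gene was called only where it lay beyond both of them. The prior degrees of freedom are the weight edgeR gives to the spread shared by all genes. They were infinite in the surface and capillary fits, so each gene's own spread carried no weight in its p-value. E16.5 and P0 differ here in depth, Malat1 and ribosomal share as given above, and their part in the differences was not tested.

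Klf4 had 1 surface UMI at E16.5 and 86 and 27 at P0, a ratio of E16.5 to pooled P0 of 0.031 (exact 95% interval 7.79e-04 to 0.177). The log2 difference was −4.35 ± 0.79, that of Klf6 was −2.51 ± 0.52 and that of Edn1 was −2.58 ± 0.57 (edgeR quasi-likelihood test, Benjamini-Hochberg adjusted p = 4.51e-07, 1.73e-05 and 4.49e-05). Klf4 and Klf6 were also lower at E16.5 in capillary type cells (−1.38 ± 0.55 and −1.67 ± 0.41), where 40.1% of 3413 genes were called, and in other cells (−1.39 ± 0.48 and −1.04 ± 0.37), where 25.1% of 6099 were called. DESeq2 called none of the members in these 3 comparisons, with surface adjusted p of 0.0594 for Klf4, 0.0713 for Klf6 and 0.0752 for Edn1.

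Nos3 was higher at E16.5 by 0.88 ± 0.34 in surface type cells and 1.55 ± 0.42 in capillary type cells (log2; edgeR quasi-likelihood test, Benjamini-Hochberg adjusted p = 0.0336 and 0.00101). The surface levels, 1.64 at E16.5 and 1.09 and 1.60 per 10000 at P0, lie close together before scaling. When library totals replaced TMM scaling, the surface difference was 0.35 and did not pass (adjusted p = 0.480). That change of scaling moved the median of all genes at E16.5 from −0.13 to −0.66 in surface type cells, from −0.21 to −0.89 in capillary type cells and from −0.08 to −0.61 in other cells. In surface type cells it also lowered the prior degrees of freedom from infinite to 3.03, and the part of this in the lost calls was not tested. The calls higher at E16.5 fell from 55.0% to 35.2% of all calls in surface type cells, from 53.5% to 22.4% in capillary type cells and from 54.6% to 23.3% in other cells. With DESeq2 that share moved the other way, to 81.6%, 84.4% and 73.2%. DESeq2 gave no adjusted p to 1659 of 3890, 1324 of 3413 and 3666 of 6099 genes in these fits, and such genes could not be called. The parts of this and of its size factors in the shift were not tested. Leaving out the filter on low counts gave 89.0% in surface type cells. Klf2 in surface type cells was at 0.535 of its pooled P0 share (exact 95% interval 0.425 to 0.667, counting error only), and its log2 difference was −0.34 ± 0.24 with TMM scaling (adjusted p = 0.281) and −0.87 with library totals (adjusted p = 0.0630).

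**Figure D3:**
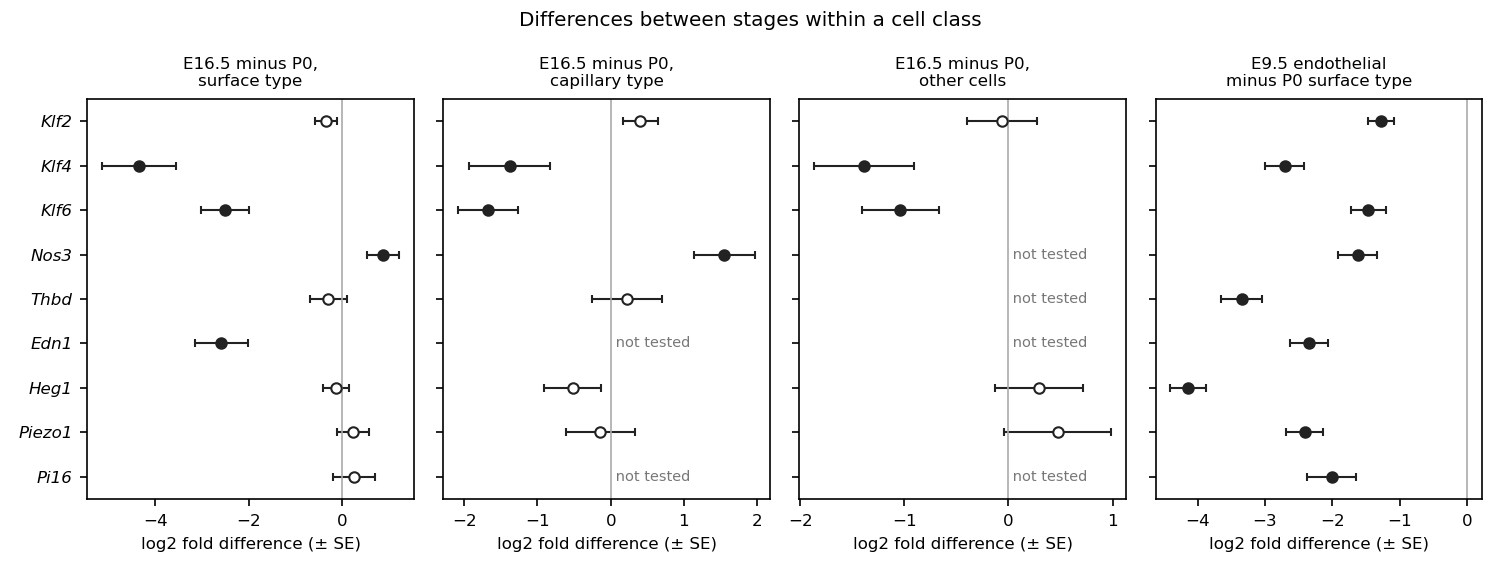
Log2 difference from P0, with SE, for each tested member: E16.5 in each of the 3 classes and E9.5 endothelial cells, all from edgeR's quasi-likelihood fits against the same P0 libraries (filled circles were called, open circles were not). The 9 members lie below 0 at E9.5, and at E16.5 Klf4 and Klf6 lie below 0 in each class.

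The pathway lists differed at E16.5 in surface type cells, where 17.6% of all genes tested were called higher and 14.4% lower. In the list of shear sensing and junction genes 3 of 12 tested genes were higher and 2 lower (median −0.03). In the malformation complex to MEF2 list, 4 of 9 tested genes were lower and none higher (median −0.84). Among them were Krit1 (−2.86 ± 0.72, from 2 UMIs at E16.5), Rap1a and Pdcd10. Krit1 reached the cut of the low-count filter only at P0, and would not have been tested had it been low there. The list counts of this paragraph thus depend in part on the filter. Of 5 other KLF genes 4 were lower, including Klf10 (−2.69) and Klf3 (−1.29), and of 19 tested dissociation response genes 10 were lower and none higher, including Dusp1 (−2.95), Fos (−2.06) and Junb (−1.74). The dissociation list summed to 16.9 per 10000 in E16.5 surface type cells and 55.2 and 45.1 at P0, moving with Klf4 and Klf6. Its part in their difference was not tested.

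Whether a stage difference itself varied between classes was tested with an interaction term. For surface against capillary type cells 0 of 4532 genes were called by edgeR and 0 by DESeq2, with 360 (7.94%) at an unadjusted p under 0.05. Those 360 included 2 members, Klf2 (−0.76 ± 0.32) and Klf4 (−3.01 ± 1.19), with adjusted p of 0.586 and 0.558 by the edgeR quasi-likelihood test (Benjamini-Hochberg). For surface against other cells, a test added after the data were seen, 0 were called by either tool, with 420 (9.27%) at an unadjusted p under 0.05, Klf4 and Klf6 among them. The stage differences of the members are therefore not shown to vary between classes.

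At E9.5 the 9 members with UMIs in endothelial cells of the canal were at higher levels there than in the pooled other cells. Those included 543 cells with cardiomyocyte and 245 with erythroid markers. In the mitral valve most other cells had interstitial markers (129, 96 and 55 cells), so ratios to other cells are not alike between the tissues. Klf2 was at 3.54 UMIs per 10000 in the 157 endothelial cells and 0.304 in the 1037 other cells, a ratio of 11.7 (exact 95% interval 10.7 to 12.7). The ratio was 22.5 for Nos3, 33.6 for Pi16 (19.7 to 60.5) and 13.5 for Edn1. It was lower for Klf4 and Heg1 (each 3.49), Piezo1 (3.0), Thbd (2.56) and Klf6 (1.98). Klf6 was higher still in the 52 cells with epicardial markers (1.61 per 10000 against 0.765 in endothelial cells), and Cyp1b1 gave 11 UMIs in other cells and 0 in endothelial cells. Klf2 was at 0.051 per 10000 in the cells with erythroid markers and 4.89 in 2 cells with leukocyte markers, the latter above the endothelial level. One library gives no test, and the intervals cover counting error only. Klf2 had a UMI in 75.8% of endothelial and 27.7% of other cells, at median depths of 23957 and 24922 UMIs, and Nos3 in 55.4% and 4.44%.

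All 9 tested members were lower in E9.5 endothelial cells than in P0 surface type cells, where 57.3% of 4964 genes were called, 30.5% higher and 26.8% lower. Heg1 was at 0.277 UMIs per 10000 at E9.5 and 3.98 and 5.18 at P0, a log2 difference of −4.14 ± 0.26 (edgeR quasi-likelihood test, Benjamini-Hochberg adjusted p = 5.87e-53). Thbd was at 0.15 against 1.43 and 1.40 (−3.35 ± 0.31), and Klf4 at 0.243 against 1.73 and 1.08 (−2.71 ± 0.29). Piezo1 was at 0.374 (log2 difference −2.41 ± 0.28), Edn1 at 0.353 (−2.35 ± 0.29), Pi16 at 0.214 (−2.01 ± 0.37) and Nos3 at 0.453 (−1.63 ± 0.28). Klf6, at 0.765, and Klf2 differed least, by −1.47 ± 0.26 and −1.28 ± 0.19. DESeq2 called each of the 9 lower as well. Cyp1b1, with 0 UMIs in E9.5 endothelial cells and 10 and 1 in P0 surface type cells, was not tested. Heg1, Thbd, Klf4, Piezo1, Edn1 and Pi16 reached the cut of the low-count filter only at P0. They would not have been tested had they been low there, so their shared direction depends in part on the filter.

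The E9.5 and E16.5 comparisons share the P0 libraries and are given side by side only. In the E9.5 fit too the prior degrees of freedom were infinite (2.33 with library totals), so its very small p-values do not rest on each gene's own spread. The E9.5 tissue is the whole canal and its endothelial cells needed 4 markers, so tissue and threshold cannot be told apart from stage. The list counts that follow stand beside 30.5% of all genes higher at E9.5 and 26.8% lower. Like those of the members, they depend in part on the low-count filter. Of 22 tested laminar flow genes 17 were lower at E9.5 and 1 higher, with Aqp1 at −4.87, and of 14 shear sensing genes 10 were lower, with Cav1 at −4.45. Of the dissociation list 18 of 19 tested genes were lower (Fos −4.09, Junb −3.67), and its sum was 13.1 per 10000 UMIs at E9.5. In the list from the malformation complex to MEF2, 2 of 9 tested genes were higher at E9.5 (Ccm2, 1.16, and Rasip1, 0.83) and 4 were lower (Cdc42bpb, −1.32; Mef2a, −1.11; Krit1, −1.04; Mef2c, −0.80), with a median of −0.34. Ankrd1 was higher by 9.72, and cardiomyocyte markers summed to 28.3 per 10000 in these endothelial cells.

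Within the E9.5 endothelial cells, 111 had UMIs of both Msx1 and Hapln1, genes of cushion-forming cells, and 46 did not, at median depths of 24353 and 19459 UMIs. The part of depth and of free RNA in this split was not tested. Klf2 was alike at 3.58 and 3.44 per 10000 UMIs in these sets, while Edn1 was 0.421 and 0.174, Klf4 0.287 and 0.125 and Nos3 0.428 and 0.521. These are values of 1 library, with no test.

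Cells of one class differed among themselves, described here in surface type cells without a test. Cells with a Klf4 UMI held Klf2 at 6.53 against 2.39 per 10000 at E9.5, 12.6 against 4.50 in P0 replicate 1 and 12.4 against 5.07 in P0 replicate 2. Median depths of these cells were 6974 against 3941 UMIs in P0 replicate 1 and 4149 against 4179 in P0 replicate 2. Cells with an Edn1 UMI held less Klf2, at 2.40 against 4.15 at E9.5 and 7.03 against 9.26 and 5.55 against 8.05 at P0. These were 44 of 157, 24 of 78 and 11 of 48 cells. At E16.5 only 2 surface type cells had an Edn1 UMI, and no value is given. Cells with a Nos3 UMI held more Heg1 in the mitral valve, at 5.35 against 1.81 at E16.5 and 6.52 against 2.1 and 7.11 against 3.31 at P0, and these cells were deeper, with medians of 3066 against 2389.5, 6989 against 4163.5 and 4864 against 3859 UMIs.

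Splitting the surface type cells of each library at the median share of the dissociation list gave a Klf2 level of 5.84 in the upper and 1.64 in the lower set at E9.5, 6.69 and 1.97 at E16.5, and 10.6 and 6.20, and 8.39 and 5.74, at P0. Klf4 followed, at 0.449 and 0.072 at E9.5 and 2.30 and 1.10, and 1.36 and 0.729, at P0. Nos3 did not have one direction: it was 0.454 and 0.453 at E9.5, 2.17 and 1.13 at E16.5, 1.23 and 0.928 in P0 replicate 1 and 1.08 and 2.28 in P0 replicate 2. Klf6 was 1.14 and 0.458 at E9.5 and 3.07 and 1.35 in P0 replicate 1, but 1.58 and 1.46 in P0 replicate 2 and 3 against 2 UMIs at E16.5. The 3 KLF genes are known to respond to dissociation themselves, and its part in their levels was not tested.

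**Figure D4:**
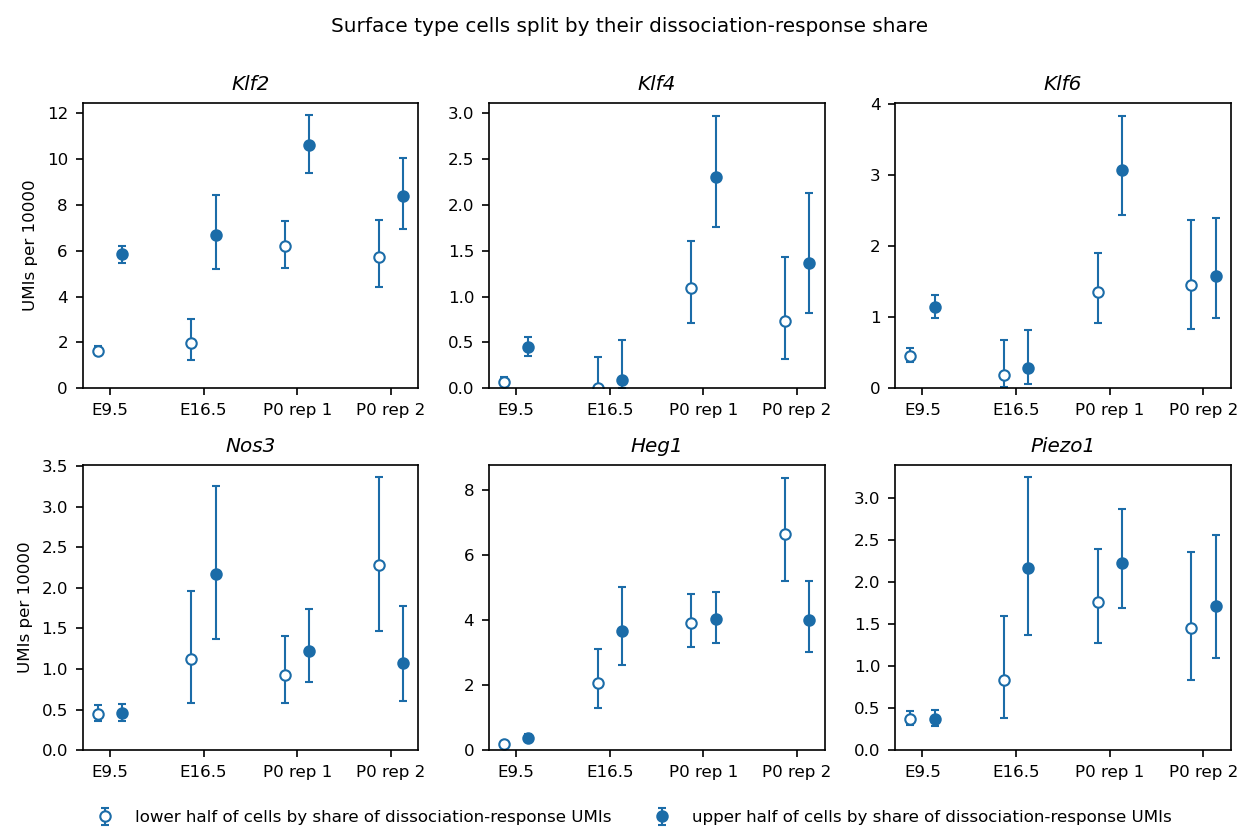
Levels of 6 members in surface type cells with a dissociation list share above (filled) or below (open) their library's median, in UMIs per 10000, with 1 pair of points per library and 95% exact Poisson intervals. Klf2 is higher in the upper set of each of the 4 libraries (5.84 against 1.64 at E9.5), and Nos3 runs in either direction.

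The genes most like each member were ranked by Pearson's r of log2 levels over the 11 sums of library and class, among 10080 genes. The sums share libraries and depth, so r is a description. Nos3 was nearest to the endothelial receptor gene Tie1 (0.977) and to Ecscr (0.971), itself a marker that defined the classes. Pi16 was nearest to Ece1 (0.979), Thbd to Efnb2 (0.972), Heg1 to Igf2 (0.981), Piezo1 to Dock6 (0.966) with Heg1 next (0.955), and Edn1 to Lyve1 (0.934). Klf2 was nearest to Igfbp4 (0.940), Klf4 to Cntln (0.963) and Klf6 to Dusp1 (0.959), a gene of the dissociation list.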

How the data were processed

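The deposited values are whole-number UMI counts for each gene in each cell, with no normalization, produced by Cell Ranger 2.1.1 with build mm10 per the submitters' processing notes. Per the labels, tissue was digested for 5 or 10 min, blocked with serum at 10%, sorted for tomato and sequenced over 57 nt as 3′ libraries. Gene tables deposited beside the matrices, text and other labels, name the 27998 identifiers. For the counting strand, nothing is given in the sources used here.

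Total depth was 30819374 UMIs (E9.5), 1021188 (E16.5), 1836768 (P0 replicate 1) and 1086623 (P0 replicate 2). Cells with under 500 genes (0, 105, 2 and 27 cells), over 10% mitochondrial UMIs (7, 65, 6 and 8) or a scrublet doublet score past 0.21 (5, 6, 1 and 2) were left out, which left 1194 of 1206, 311 of 452, 282 of 291 and 176 of 211. In P0 replicate 1, 15 symbols had become dates and were taken by identifier. The barcode lists of the P0 libraries appear exchanged, so cells were used by column.

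Raw counts were summed per library and class and tested with edgeR 4.0.16 (R 4.3.3, limma 3.58.1), TMM scaling and the two-sided quasi-likelihood test, on genes whose CPM in some sum equals 10 counts of the smallest sum or more, with Benjamini-Hochberg adjustment over all genes tested and a threshold of 0.05. Classes were compared over 9 sums with the library as a block (4 residual degrees of freedom), and stages over 1 class at a time without one (1 residual degree of freedom). Poisson, Clopper-Pearson and conditional binomial intervals are exact at 95% and, like floors of 3 counts, cover counting error only. A member with at least 30 UMIs entered the likeness ranking, with genes of at least 100 UMIs, on log2(UMIs per 10000 + 0.1). DESeq2 1.42.0, library totals, no filter, other marker and gene thresholds, thinning to 1000 UMIs and leaving out libraries were alternatives. The script was tested on simulated data. All 10 members are named, with list genes that passed a test, at most 6 per list and comparison by smallest p. One list gene that passed is not reported here. The members and lists were chosen with earlier results of these data known. Sequences come from RefSeq, positions from GENCODE. Python 3.11.15, scanpy 1.11.5, numpy 2.4.6, scipy 1.17.1 and pandas 2.3.3 were used.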

Additional observations from a re-analysis of the deposited data

How the results depend on the processing

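Over the alternatives, 780 of 856 recomputed member values were counted as the same, 63 lost a call, 3 gained one, 9 moved without a test and 1 reversed. A reversal was counted only where a fit called the gene. A change of sign between fits without a call was counted as the same, as was an untested value within the SE. For example, Klf4 in surface against other cells ran from −0.24 to 0.49 when libraries were left out. The reversed value was Nos3 in the test of surface against other cells by stage, −3.99 (edgeR quasi-likelihood test, Benjamini-Hochberg adjusted p = 0.0373) with 3 of 6 endothelial markers required. Shares of cells moved beyond their interval in 84 of 110 values when cells were thinned to 1000 UMIs.

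As reported, 1117 genes and 8 members were called for surface against other cells, 1308 and 6 for capillary against other, 664 and 6 for surface against capillary, 1247 and 4 for E16.5 against P0 in surface type cells, 1367 and 3 in capillary type cells, 1532 and 2 in other cells, and 2845 and 9 for E9.5 against P0. With classes set after thinning, genes called fell to 639, 853 and 349 in the class comparisons, members to 1 for capillary against other cells and to 1 for E16.5 in capillary type cells, and surface against other cells by stage gave 1 gene. Without the library block (no replicate block), 400, 589 and 114 genes were called, with 2 members for capillary against other and 0 for surface against capillary. DESeq2 called 424 genes for surface against capillary, 369, 500 and 396 with 0 members for E16.5 in the surface, capillary and other classes, and 1027 at E9.5. Library totals gave 594 genes and 2 members for E16.5 surface. With no filter, E16.5 surface gave 136 genes and 0 members, and the interaction tests 12 and 26 genes. With 3 of 6 markers, E16.5 capillary gave 1 member, and the interaction tests 1 gene, and 48 genes with 1 member. With at least 1000 genes per cell, E16.5 other gave 835 genes and surface against other by stage 2 genes. Without endothelial cells holding another type's markers, chosen after seeing the data, that test gave 13 genes. The causes were not tested.

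Leaving out each library in turn gave 613 to 1215 genes and 7 to 8 members for surface against other cells, 764 to 1435 and 3 to 6 for capillary against other, and 296 to 689 and 2 to 7 for surface against capillary. No paired analysis was possible for the stage comparisons because the groups share fewer than 2 replicate numbers. Without either P0 library they are values with no test. At E16.5 (median 2357 UMIs per cell) Klf4, Klf6, Edn1 and Cyp1b1 each had at most 5 surface UMIs, so their values there have wide counting intervals.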
